A study of Mus musculus with 36 samples.

Results

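MicroRNAs (miRNAs) were measured by small RNA sequencing in left ventricles of mice 8 weeks after myocardial infarction (MI), against left ventricles of mice 8 weeks after a sham operation. All animals were C57BL/6 males operated on at an age of 8 weeks. In the MI group the proximal left anterior descending coronary artery had been ligated, and the sham group had the same surgery without occlusion. Each group had 3 libraries, called MI 1, MI 2 and MI 3 and sham 1, sham 2 and sham 3 here, made from total RNA of pooled left ventricles, and values of 3 libraries are given in that order. How many animals a library pools is not stated, nor whether the libraries come from different animals, and the p-values therefore refer to the spread between these libraries alone. The whole ventricle was used, so that scar and surviving muscle of an MI heart were measured together. The 282 miRNAs tested were those with at least 10 RPM (read counts scaled to the same total in each library) in at least 3 of the 6 libraries, out of 624 in the table. Of these 282, 234 were at or above the minimum in all 6 libraries, 32 reached it only in MI libraries and 4 only in sham libraries, so that those 36 had to differ. Of the 342 that were not tested, 10 reached 10 RPM in exactly 2 libraries and 21 in exactly 1.

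A miRNA is cut from a hairpin precursor, whose left and right arms give the 5p and 3p products, and is loaded on an Argonaute protein. It binds target mRNAs mainly through its seed, bases 2 to 8 from the 5′ end, and lowers their stability and translation. In the heart a small set of muscle miRNAs (miR-1a, miR-133a, miR-208a, miR-208b, miR-499) is made in cardiomyocytes, and others are known from fibroblasts, endothelium, smooth muscle or blood cells. A whole-tissue library mixes these sources, and fewer cells of a type cannot be told apart from less RNA per cell.

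Mature sequences of the miRNAs on which the results turn are shown with the seed in capitals, from the RefSeq tables of build GRCm38.p6. A sequence that could be shown was found for 236 of the 282 miRNAs. The 2 miRNAs from introns of the cardiac myosin heavy chain genes share a seed and moved in opposite directions.
miR-208a-3p: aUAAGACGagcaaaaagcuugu
miR-208b-3p: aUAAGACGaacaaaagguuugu
miR-34a-5p and miR-34b-5p, from chromosomes 4 and 9, share a seed and show the family of the largest rise.
miR-34a-5p: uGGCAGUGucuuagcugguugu
miR-34b-5p: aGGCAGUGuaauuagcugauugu
Members of the let-7 family and of the miR-15 family are shown because they have 1 seed each and differed in their change.
let-7i-5p: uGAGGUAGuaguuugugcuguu
let-7e-5p: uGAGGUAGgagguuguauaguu
let-7f-5p: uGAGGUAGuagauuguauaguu
miR-497a-5p: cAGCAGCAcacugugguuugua
miR-195a-5p: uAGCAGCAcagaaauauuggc
miR-322-5p: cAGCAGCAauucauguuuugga
miR-199a, miR-214, miR-21a, miR-140 and miR-455 gave some of the largest rises.
miR-199a-5p: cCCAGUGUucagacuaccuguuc
miR-199a-3p: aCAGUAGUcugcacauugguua
miR-214-3p: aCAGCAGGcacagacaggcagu
miR-21a-5p: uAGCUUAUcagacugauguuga
miR-140-3p: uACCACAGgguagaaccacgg
miR-455-3p: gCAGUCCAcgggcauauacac
miR-127-3p and miR-411-5p stand for the imprinted cluster on chromosome 12, of which 20 products were tested.
miR-127-3p: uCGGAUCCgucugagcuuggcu
miR-411-5p: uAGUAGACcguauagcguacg
The miR-30 and miR-29 seeds and miR-22-3p belong to abundant miRNAs that were lower.
miR-30e-5p: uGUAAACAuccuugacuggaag
miR-30c-5p: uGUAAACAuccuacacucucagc
miR-29a-3p: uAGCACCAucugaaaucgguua
miR-29c-3p: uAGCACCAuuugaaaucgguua
miR-22-3p: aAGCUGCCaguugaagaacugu

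Of the 282 miRNAs, 100 were higher in MI ventricles (35.5%) and 130 lower (46.1%), 81.6% in all, by edgeR's quasi-likelihood test with a Benjamini-Hochberg adjusted p below 0.05. The 3 MI and 3 sham libraries did not overlap for 234 miRNAs (83.0%). The change was at least 2-fold for 62 of the higher and 67 of the lower miRNAs, and at least 4-fold for 32 and 22. Values are given as normalized CPM, which are RPM rescaled by trimmed-mean factors, and errors of log2 fold changes are approximate standard errors. Reads assigned to miRNAs numbered 28778530 to 39735944 in MI libraries and 32957817 to 37800899 in sham libraries. Between libraries of a group the counts of a miRNA varied by a coefficient of variation of 17.3% beyond counting error. On this scale the median of all 282 log2 fold changes was -0.20. With DESeq2-type median-ratio factors in edgeR it was -0.0013, with 115 higher and 104 lower, and with library totals alone it was 0.55, with 165 higher and 62 lower. The 100 higher miRNAs were higher with all 3 scalings, 62 of the lower ones were lower with all 3, and 20 of them were higher on library totals. Directions of changes below about 1 log2 unit are therefore given with both scales where they differ.

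**Figure D1:**
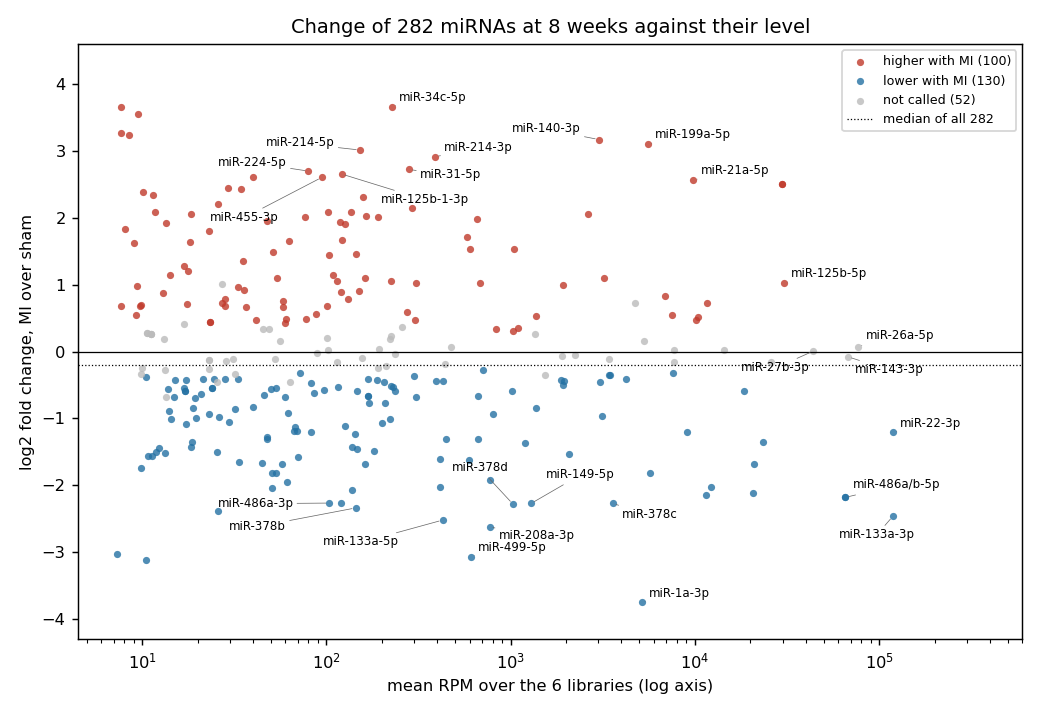
Log2 fold change of each of the 282 miRNAs (vertical axis) against its mean RPM over the 6 libraries (horizontal log axis); each point is 1 miRNA, red higher in MI, blue lower, grey not called, with the dotted line at the median of -0.20. The named miRNAs are the 10 largest rises and the 10 largest falls among those averaging at least 50 RPM, and the 8 most abundant.

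The muscle miRNAs were lower in MI ventricles, with miR-208b-3p as the exception. Of 11 muscle miRNAs with reads, 9 were tested. Of these 8 were lower and 1 higher, where 46.1% and 35.5% of all miRNAs were. Their median log2 fold change was -2.52 against -0.20 over all 282, and these calls were the same with all 3 scalings. miR-1a-3p, which restrains growth and proliferation genes of muscle, had 918, 1161 and 571 normalized CPM in MI ventricles, against 11316, 12347 and 11908 in sham ventricles. All 3 MI libraries were more than 9 times lower than any sham library, and the change was the largest fall of the comparison (log2 fold change -3.75 ± 0.26, edgeR adjusted p = 9.05e-06).
miR-133a-3p, made from the same transcripts as miR-1a, had 50532, 51067 and 27112 normalized CPM in MI ventricles, against 241341, 253148 and 215926 in sham ventricles. It was the second most abundant miRNA by mean RPM, and MI 3 was well below MI 1 and MI 2 (log2 fold change -2.46 ± 0.24, edgeR adjusted p = 3.58e-05). Its other arm, miR-133a-5p, changed by -2.52 (edgeR adjusted p = 5.28e-05), and miR-133b-3p, of another locus, by -2.03 (edgeR adjusted p = 9.75e-06).
miR-499-5p, which lies in the slow-type myosin gene Myh7b, had 160.2, 237 and 74.9 normalized CPM in MI ventricles, against 1345, 1471 and 1138 in sham ventricles. Groups were far apart, and the 3 MI libraries ranged about 3-fold among themselves (log2 fold change -3.06 ± 0.38, edgeR adjusted p = 0.000141). Its other arm, miR-499-3p, was rare, reached the minimum only in sham libraries and changed by -3.12 (edgeR adjusted p = 0.000463).
miR-208a-3p, from an intron of Myh6 (chr14:54949060-54949142, minus strand, GRCm38.p6), had 267, 323 and 176 normalized CPM in MI ventricles, against 1464, 1699 and 1544 in sham ventricles. All MI libraries were lower than all sham libraries (log2 fold change -2.62 ± 0.22, edgeR adjusted p = 1.91e-05). miR-208b-3p, from an intron of Myh7 (chr14:54975700-54975776, minus strand), had 1344, 1649.7 and 1016 normalized CPM in MI ventricles, against 509, 358 and 519.8 in sham ventricles. All 3 MI libraries were above the sham libraries (log2 fold change 1.53 ± 0.21, edgeR adjusted p = 0.000278). The ratio of miR-208b-3p to miR-208a-3p reads, which needs no scaling between libraries, was 5.04, 5.11 and 5.79 in MI ventricles, against 0.348, 0.211 and 0.337 in sham ventricles. The order of these 2 miRNAs with 1 seed was thus turned round in every MI library.

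MI 3 stood apart among the MI libraries. Its counts differed from MI 1 and MI 2 with a chi-square per degree of freedom of 3246 and 5146, against 645 between MI 1 and MI 2. All 9 muscle miRNAs had their lowest MI value there, miR-208b-3p included. In the mRNA libraries of the same names, the mean log2(FPKM + 1) of 15 cardiomyocyte marker genes was 10.2, 9.68 and 9.0 in MI ventricles, against 10.5, 10.6 and 10.6 in sham ventricles. Of these 15, 9 were lower and 0 higher (limma, adjusted p below 0.05), where 8.61% of all mRNAs were lower. After quantile normalization 6 were lower, where 32.8% of all mRNAs were. Tcap was above all sham libraries in MI 1 and MI 2. For 12 activated fibroblast markers the mean log2(FPKM + 1) was 5.59, 6.49 and 7.46 in MI ventricles, against 1.94, 1.91 and 2.03 in sham ventricles. All 12 were higher (limma, adjusted p below 0.05), where 58.0% of all mRNAs were, and also after quantile normalization, where 24% were. Of these, Fmod, Cthrc1 and Fap reached the minimum of 1 FPKM only in MI libraries, so that their direction in FPKM was fixed by the filter. Markers of skeletal muscle (4.69), mesothelium (4.81) and fat (7.49) were also highest in MI 3, against sham values of at most 1.27, 0.216 and 1.74. The part of these cell types in the miRNA values was not tested. Without MI 3, the muscle median was -2.22, with the same 8 lower and 1 higher, and over all 282 there were 103 higher and 128 lower.

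**Figure D2:**
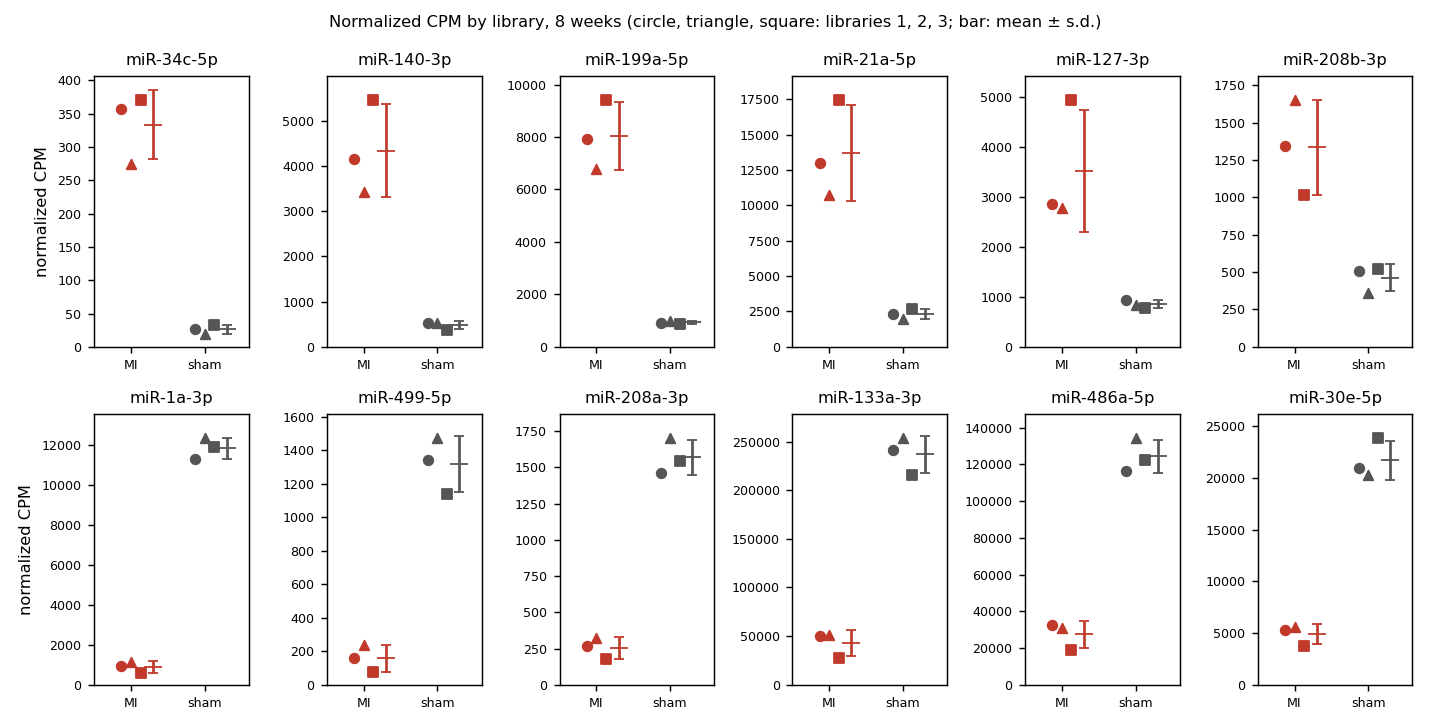
Normalized CPM of 12 miRNAs (vertical axes, from 0) in the 3 MI libraries (red, left) and 3 sham libraries (grey, right) of each panel; points are libraries (circle 1, triangle 2, square 3) and bars are mean ± s.d. No panel has overlapping groups, and MI 3 has the highest MI value for miR-34c-5p, miR-140-3p, miR-199a-5p, miR-21a-5p and miR-127-3p and the lowest for the other 7.

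Other miRNAs that are abundant in heart muscle were lower as well. miR-22-3p, which promotes hypertrophic growth, had 78859.6, 87486 and 66630.3 normalized CPM in MI ventricles, against 190308, 175688 and 171381 in sham ventricles. It was the most abundant miRNA by mean RPM, and its groups did not overlap (log2 fold change -1.21 ± 0.13, edgeR adjusted p = 5.34e-05, with -0.46 on library totals). All 10 products tested of the miR-30 family, which restrains connective tissue growth factor, were lower with all 3 scalings (median -1.32, and -0.57 on library totals). Of all 282 miRNAs, 46.1% were lower on the trimmed-mean scale.
miR-30e-5p had 5318, 5562 and 3785 normalized CPM in MI ventricles, against 20967, 20315 and 23818 in sham ventricles. Its sham libraries were all at least 3 times higher than its MI libraries (log2 fold change -2.15 ± 0.17, edgeR adjusted p = 1.55e-05). miR-30c-5p changed by -2.02 and miR-30a-5p by -1.35.
The miR-378 group, of which miR-378a lies in Ppargc1b, a coactivator gene of mitochondrial metabolism, was lower in 3 of the 10 largest falls. miR-378c had 1517, 1718 and 1057 normalized CPM in MI ventricles, against 7364, 6752 and 6593 in sham ventricles. MI 3 was again the lowest library (log2 fold change -2.27 ± 0.19, edgeR adjusted p = 1.69e-05). miR-378d changed by -2.28, miR-378b by -2.34 and miR-378a-3p by -2.12. These miRNAs are alike in sequence, and how reads that match several of them were counted is not given in the sources used here.
miR-149-5p, from an intron of the glypican gene Gpc1, had 585, 655 and 314 normalized CPM in MI ventricles, against 2615, 2805 and 2080.4 in sham ventricles. Its lowest sham library was more than 3 times its highest MI library (log2 fold change -2.27 ± 0.27, edgeR adjusted p = 0.000111).
miR-486a-5p and miR-486b-5p, made in muscle and in red cells and in part within Ank1, had identical counts in all libraries and are 1 measurement. They had 32619, 30676 and 19015 normalized CPM in MI ventricles, against 116601, 134090.0 and 122450.0 in sham ventricles. The groups were far apart (log2 fold change -2.18 ± 0.21, edgeR adjusted p = 3.17e-05). miR-486a-3p also fell (log2 fold change -2.27 ± 0.33, edgeR adjusted p = 0.000358). The 3 other erythroid products tested, miR-451a, miR-144-3p and miR-144-5p, changed by -0.66, -0.77 and -0.47, and by 0.09, -0.02 and 0.27 on library totals, where none of them passed the test. miR-144-5p also did not pass when any of the 6 libraries was left out, at -0.56 to -0.26.
miR-26a-5p and miR-27b-3p, also among the 8 most abundant, did not pass the test on the trimmed-mean scale. miR-26a-5p had 77135, 74005 and 76918 normalized CPM in MI ventricles, against 74066, 75607 and 66729 in sham ventricles. Groups overlapped (log2 fold change 0.08 ± 0.10, edgeR adjusted p = 0.502), but it was called higher with median-ratio factors, at 0.27, and with library totals, at 0.83. For miR-27b-3p the change was 0.01 ± 0.10 (edgeR adjusted p = 0.95), and 0.76 on library totals.

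Of all miRNA reads, the 10 most abundant miRNAs held 61.9 ± 2.36% in MI ventricles and 67.7 ± 0.326% in sham ventricles. These 10 names include 2 pairs with identical counts, miR-486a-5p with miR-486b-5p and miR-199a-3p with miR-199b-3p. Their counts enter the share and the total under each name. The difference of -5.81 percentage points had an exact two-sided permutation p of 0.1, the smallest that 3 against 3 libraries allow. miR-133a-3p alone held 5.52 ± 1.63% in MI ventricles and 18.2 ± 0.627% in sham ventricles, and miR-22-3p 10.05 ± 1.15% in MI ventricles and 13.8 ± 0.778% in sham ventricles. miR-199a-3p, counted equally under miR-199b-3p, held 5.40 ± 0.145% in MI ventricles and 0.565 ± 0.0481% in sham ventricles.

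The clustered miR-199a and miR-214, miR-199b and miR-21a, known from activated fibroblasts, rose in MI ventricles. All 8 products tested were higher with all 3 scalings (median log2 fold change 2.54, and 2.57 without MI 3), where 35.5% of all miRNAs were. miR-199a-5p, which targets hypoxia response genes, had 7924, 6782 and 9392 normalized CPM in MI ventricles, against 912, 1001 and 885 in sham ventricles. The lowest MI library was more than 6 times the highest sham library (log2 fold change 3.11 ± 0.15, edgeR adjusted p = 2.74e-06).
miR-214-3p, from the same transcript as the miR-199a hairpin of chromosome 1 (Mir199a-2, chr1:162217814-162217923, and Mir214, chr1:162223368-162223477, plus strand, both in exons of the long noncoding RNA gene Dnm3os), had 529, 471 and 664 normalized CPM in MI ventricles, against 74.4, 78.2 and 68.2 in sham ventricles. Its other arm, miR-214-5p, had 213, 202 and 239 normalized CPM in MI ventricles, against 31.5, 25.4 and 24.1 in sham ventricles. For both arms the groups were far apart, with log2 fold changes of 2.91 ± 0.16 and 3.01 ± 0.15 (edgeR adjusted p = 4.57e-06 and 2.74e-06). miR-199a-3p and miR-199b-3p, identical in sequence, changed by 2.51, and miR-199b-5p by 2.31.
miR-21a-5p, which promotes fibroblast survival and fibrosis, had 13021, 10730.1 and 17416 normalized CPM in MI ventricles, against 2287, 1956 and 2703 in sham ventricles. MI 3 had the highest value and MI 2 the lowest of the MI libraries (log2 fold change 2.57 ± 0.21, edgeR adjusted p = 1.69e-05). Its hairpin lies at chr11:86584067-86584158 (minus strand), in an exon of the vacuole membrane protein gene Vmp1. The rarer arm miR-21a-3p changed by 1.94 (edgeR adjusted p = 0.000161).

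Products of 2 hairpins known from cartilage were also higher, 4 of 4 with all 3 scalings, where 35.5% of all miRNAs were. Of these, miR-455-5p reached the minimum only in MI libraries. miR-140-3p, from an intron of Wwp2 (chr8:107551244-107551313, plus strand) and needed for chondrocyte growth, had 4149.7, 3425 and 5450.5 normalized CPM in MI ventricles, against 535, 537 and 374 in sham ventricles. Every MI library was more than 6 times every sham library (log2 fold change 3.17 ± 0.23, edgeR adjusted p = 9.75e-06). miR-140-5p changed by 2.08.
miR-455-3p, from an intron of the fibrillar collagen gene Col27a1, had 141, 109 and 148 normalized CPM in MI ventricles, against 24.4, 22.1 and 18.9 in sham ventricles. Every MI library was more than 4 times every sham library (log2 fold change 2.60 ± 0.17, edgeR adjusted p = 7.06e-06), and miR-455-5p changed by 2.42.

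The largest rise of the comparison was that of miR-34c-5p, of a hairpin on chromosome 9 (chr9:51103034-51103110, minus strand) whose family is a target of p53. It had 357, 274 and 369.9 normalized CPM in MI ventricles, against 26.3, 19.5 and 33.0 in sham ventricles. Every MI library was at least 8 times every sham library (log2 fold change 3.66 ± 0.23, edgeR adjusted p = 6.69e-06). From the neighbouring hairpin, miR-34b-5p and miR-34b-3p changed by 3.56 and 3.66, with at least 10.7 normalized CPM in each MI library and less than 2 in each sham library. Both reached the minimum of 10 RPM only in MI libraries, so that their direction was fixed by the filter. miR-34a-5p, from chromosome 4 (chr4:150068454-150068555, plus strand), had 42.6, 43.0 and 50.8 normalized CPM in MI ventricles, against 87.68, 104 and 105 in sham ventricles. It was lower without overlap (log2 fold change -1.12 ± 0.13, edgeR adjusted p = 9.42e-05), and the ratio of miR-34b-5p to miR-34a-5p reads was 0.358, 0.249 and 0.315 in MI ventricles, against 0.00907, 0.00943 and 0.0164 in sham ventricles.
Another of the 10 largest rises among miRNAs averaging at least 50 RPM was miR-31-5p, often lost in tumours. It had 478, 349.5 and 368 normalized CPM in MI ventricles, against 68.8, 67.5 and 44.7 in sham ventricles. MI 1 was the highest library (log2 fold change 2.72 ± 0.21, edgeR adjusted p = 1.32e-05). miR-224-5p had 119, 104 and 116 normalized CPM in MI ventricles, against 18.4, 18.2 and 15.6 in sham ventricles. Its 3 MI libraries were close together (log2 fold change 2.70 ± 0.13, edgeR adjusted p = 2.74e-06). miR-125b-1-3p, the rarer arm of a miR-125b hairpin, changed by 2.66 ± 0.15 (edgeR adjusted p = 4.57e-06), and the abundant miR-125b-5p by 1.03 ± 0.15 (edgeR adjusted p = 0.000417).

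The imprinted Dlk1-Dio3 region on chromosome 12 holds a large set of miRNA hairpins within noncoding RNAs made from the maternal allele, and its miRNAs are known from developing tissue. Of its 60 products in the table, 20 were tested. Of these, 9 reached the minimum of 10 RPM only in MI libraries and so had to be higher. The other 11 were all higher in MI ventricles with all 3 scalings, against 35.5% of all miRNAs, and log2 fold changes of the 20 were 0.70 to 2.39. The summed RPM of all 60 was 6274 to 11072 in MI ventricles and 1093 to 1277 in sham ventricles. Its most abundant member, miR-127-3p, had 2858, 2768 and 4924 normalized CPM in MI ventricles, against 932, 833 and 776 in sham ventricles. MI 3 was well above the other MI libraries, and no MI value was near a sham value (log2 fold change 2.05 ± 0.23, edgeR adjusted p = 8.02e-05). miR-411-5p had 774, 718 and 1126 normalized CPM in MI ventricles, against 249, 203 and 208 in sham ventricles. The pattern over the libraries was the same (log2 fold change 1.99 ± 0.19, edgeR adjusted p = 3.35e-05). All 20 had their highest MI value in MI 3, and without that library those 11 were still higher. Rian, a noncoding host RNA of this region, had 5.499, 7.95 and 14.3 FPKM in MI ventricles, against 1.43, 1.12 and 1.00 FPKM in sham ventricles. It rose as well (difference 2.14 ± 0.30 in log2(FPKM + 1), limma adjusted p = 0.00158).

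miRNAs of leukocytes were mixed. Of 9 tested, 5 were higher and 2 lower (median 0.68), where 35.5% and 46.1% of all miRNAs were, and on library totals 7 were higher and 2 lower (median 1.43). Among the higher, miR-511-3p reached the minimum only in MI libraries. miR-142a-5p, made in all blood cell lineages, had 2054, 1991 and 2775 normalized CPM in MI ventricles, against 1222, 992 and 1216 in sham ventricles. Groups did not overlap (log2 fold change 0.99 ± 0.16, edgeR adjusted p = 0.000685). miR-223-3p of neutrophils and monocytes changed by 0.91 (edgeR adjusted p = 0.00636) and miR-146b-5p, induced by NF-kB, by 1.67 (edgeR adjusted p = 0.0027). miR-146b-5p had 116, 107 and 249 normalized CPM in MI ventricles, against 52.0, 35.6 and 60.9 in sham ventricles. MI 3 was more than 2 times the other MI libraries. miR-511-3p, from the macrophage mannose receptor gene Mrc1, changed by 0.68 (edgeR adjusted p = 0.0213) and was not called without MI 2, MI 3 or sham 2, at 0.72, 0.53 and 0.498.
miR-150-5p of mature lymphocytes had 247, 250.1 and 184 normalized CPM in MI ventricles, against 725, 768 and 581 in sham ventricles. It was lower in all MI libraries (log2 fold change -1.61 ± 0.17, edgeR adjusted p = 4.52e-05). miR-155-5p, induced in activated macrophages and lymphocytes, had 46.9, 42.0 and 47.0 normalized CPM in MI ventricles, against 105, 107 and 98.5 in sham ventricles. It too was lower without overlap (log2 fold change -1.19 ± 0.11, edgeR adjusted p = 3.03e-05), and both stayed lower with all 3 scalings. In the mRNA libraries all 9 macrophage markers tested were higher, also after quantile normalization, where 58.0% and 24% of all mRNAs were. For neutrophils 5 of 5 were higher in FPKM and none after quantile normalization. All 3 lymphocyte markers tested, Cd79a, Cd79b and Cd3g, were higher on both scales. They reached the minimum of 1 FPKM only in MI libraries, as did Csf3r and Mmp9 of the neutrophil markers, so that their direction in FPKM was fixed by the filter.

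miR-126a, made in endothelium from Egfl7, was lower in both arms. miR-126a-3p, which sustains VEGF signalling, had 2738, 3236 and 2556 normalized CPM in MI ventricles, against 10029, 10993 and 8945 in sham ventricles. The groups were about 3-fold apart (log2 fold change -1.81 ± 0.14, edgeR adjusted p = 1.29e-05). miR-126a-5p changed by -1.68 (edgeR adjusted p = 1.69e-05). Egfl7 itself had 49.2, 58.6 and 47.4 FPKM in MI ventricles, against 31.2, 32.9 and 31.6 FPKM in sham ventricles. It was higher in MI ventricles in FPKM (difference 0.67 ± 0.11 in log2(FPKM + 1), limma adjusted p = 0.00258), but did not pass after quantile normalization (0.25). Of 8 endothelial mRNA markers, Egfl7 among them, 2 were higher and 1 lower, and 0 higher and 2 lower after quantile normalization. Over all mRNAs 58.0% were higher and 8.61% lower, and 24% and 32.8% after quantile normalization.
Of the smooth muscle miRNAs, miR-143-3p had 64397, 58419 and 70100.2 normalized CPM in MI ventricles, against 73536, 68132 and 62071 in sham ventricles. Groups overlapped (log2 fold change -0.08 ± 0.12, edgeR adjusted p = 0.549), and on library totals the value was 0.68 and passed the test. miR-145a-3p was lower (log2 fold change -0.93 ± 0.15, edgeR adjusted p = 0.0007), while miR-145a-5p changed by 0.19 (edgeR adjusted p = 0.385). On library totals the 3p arm changed by -0.17 and was not called, and the 5p arm changed by 0.94 and was called higher. miR-221-3p and miR-222-3p, which share a seed and act on vascular cell growth, were higher by 0.47 and 1.46. Of 6 smooth muscle mRNA markers 5 were higher, before and after quantile normalization, where 58.0% and 24% of all mRNAs were.
The miR-29 family, which represses collagen genes, had 5 of 5 products lower on the trimmed-mean scale, where 46.1% of all miRNAs were. With median-ratio factors 4 of its products were lower, and on library totals 2 were lower and 1 higher. miR-29c-3p had 320.2, 355 and 302 normalized CPM in MI ventricles, against 1052, 996 and 963 in sham ventricles. It was lower with all 3 scalings (log2 fold change -1.62 ± 0.11, edgeR adjusted p = 8.55e-06). The more abundant miR-29a-3p changed by -0.40 (edgeR adjusted p = 0.00822), but by 0.35 on library totals, where it was called higher, and it did not pass with median-ratio factors.
In most of the remaining lists the counts differed between scalings. Over all miRNAs 35.5% were higher and 46.1% lower on the trimmed-mean scale. Of 9 products of the growth-promoting miR-17-92 cluster and its paralogs 6 were lower and 0 higher, but 3 lower and 1 higher with median-ratio factors and 1 lower and 5 higher on library totals. Of 8 products of the miR-23, miR-27 and miR-24 clusters 4 were higher, miR-23a-3p, miR-23b-3p, miR-27a-5p and miR-27b-5p, against 8 on library totals, and without sham 1 the first and second of these did not pass, at 0.26 and 0.33. Neither of the 2 Hox cluster miRNAs passed, and on library totals 1 was higher. Of 2 epithelial miRNAs, 1 was lower, miR-203-3p (log2 fold change -0.62 ± 0.18, edgeR adjusted p = 0.0115, with 0.14 on library totals). Of 4 miRNAs in the table known from liver, brain or pancreas, only miR-9-5p was tested, and it was lower (log2 fold change -1.82 ± 0.15, edgeR adjusted p = 1.69e-05).

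Over all miRNAs, 35.5% were higher and 46.1% lower, beside which the counts by seed stand. Among miRNAs with a printable sequence, 12 seeds were held by at least 3 tested miRNAs. Calls went in both directions for 5 of them, only up for 2 and only down for 5, and on library totals they went both ways for 4. For the let-7 seed, which pairs with growth and cell cycle mRNAs, 4 of 9 members were higher and 3 lower, with 4 and 2 on median-ratio factors and 8 and 0 on library totals.
let-7i-5p had 3884, 3642 and 4135 normalized CPM in MI ventricles, against 1964, 1845 and 1609.6 in sham ventricles. It was about 2-fold higher in MI ventricles (log2 fold change 1.11 ± 0.12, edgeR adjusted p = 5.85e-05). let-7f-5p, the most abundant member in sham ventricles, had 15241, 16532 and 13323 normalized CPM in MI ventricles, against 24983, 22442 and 20729 in sham ventricles. It was lower without overlap (log2 fold change -0.60 ± 0.13, edgeR adjusted p = 0.00294), although on library totals its change was 0.15 and did not pass. The ratio of let-7i-5p to let-7f-5p reads was 0.255, 0.22 and 0.31 in MI ventricles, against 0.0786, 0.0822 and 0.0777 in sham ventricles. The ratio of let-7e-5p to let-7f-5p, 0.022, 0.022 and 0.0294 in MI ventricles, against 0.0082, 0.00796 and 0.00748 in sham ventricles, moved the same way in all MI libraries.
In the miR-15 family, which slows the cell cycle, 3 of 6 members were higher and 2 lower. miR-497a-5p and miR-195a-5p, of 1 cluster on chromosome 11, were higher by 1.54 and 1.02, and miR-322-5p, of the X chromosome, was lower at -1.30, each with all 3 scalings. miR-497a-5p had 852, 738 and 717 normalized CPM in MI ventricles, against 287, 283 and 225 in sham ventricles. The reads of miR-497a-5p over miR-322-5p were 2.90, 2.52 and 2.82 in MI ventricles, against 0.457, 0.399 and 0.305 in sham ventricles, so that a different member was the more abundant in each group. miR-15a-5p changed by -0.44, and by 0.32 on library totals.

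**Figure D3:**
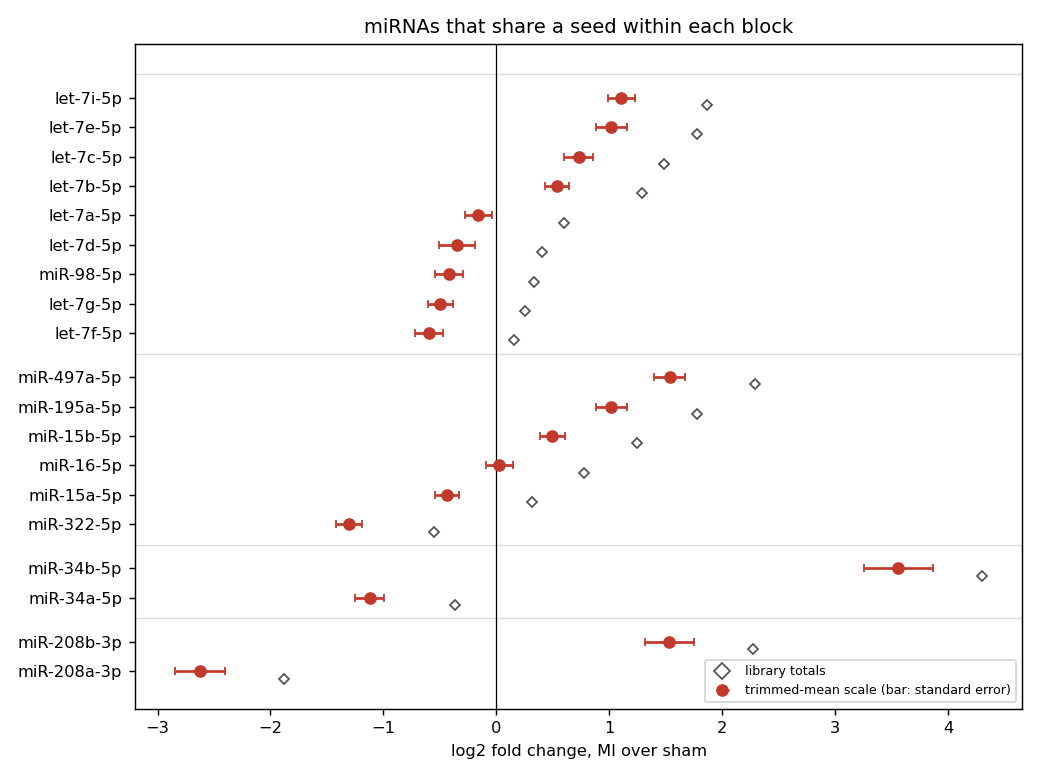
Log2 fold changes (horizontal axis) of miRNAs that share a seed, in blocks of let-7, miR-15 family, miR-34, miR-208a and miR-208b members; red circles are on the trimmed-mean scale with standard errors and open diamonds on library totals. Both scales keep the distance between members, such as 1.70 between let-7i-5p and let-7f-5p, while the totals shift all members up.

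On the trimmed-mean scale, hairpins that lie close together on a chromosome mostly had calls in 1 direction. Of 37 clusters with at least 2 hairpins within 10000 bases on 1 strand, 16 had only higher calls, 20 only lower calls and 1 both. Over all miRNAs 35.5% were higher and 46.1% lower, and how many clusters would agree at these shares was not tested. The Dlk1-Dio3 region was counted as more than 1 cluster. Some of its products, and both of miR-34b, reached the minimum only in MI libraries, so that their direction was fixed by the filter. The cluster with both held let-7b and let-7c-2 on chromosome 15, where let-7b-5p changed by 0.54 and let-7b-3p by -0.54. On library totals they changed by 1.29 and 0.21 and let-7c-2-3p by 0.08, the last 2 not called, so that this cluster had no lower call on that scale. Products that several hairpins can give were counted in each of their clusters. A cluster was counted by its called products alone, as for let-7a and miR-100, where miR-100-5p (0.83) was called and let-7a-5p (-0.16) was not. Such a cluster, with 1 called product, could not have calls in both directions. The clusters were not counted again on library totals, where products of miR-17-92 and its paralogs had calls in both directions. The cluster of miR-322, miR-351 and miR-450 on the X chromosome had 5 of 5 products lower on the trimmed-mean scale. Their changes ran from -1.46 to -0.46 (median -1.42), and on library totals the median of all miRNAs was 0.75 higher. The cluster of miR-221 and miR-222, also on the X chromosome, had 3 of 3 higher with all 3 scalings.

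The balance of the arms was compared in 65 hairpins with both arms tested, as the log2 ratio of 5p to 3p reads plus 0.5 within a library, which is free of scaling between libraries. It moved towards 5p in 14 hairpins (21.5%) and towards 3p in 8 (12.3%), 33.8% in all, by limma with an adjusted p below 0.05. The count towards 3p fell to 4 without MI 1 and to 5 without MI 2, MI 3 or sham 2. Both arms were called in the same direction in 48 hairpins, where 81.6% of all miRNAs were called in either direction. They were called in opposite directions in 1, let-7b, whose 3p arm was above 0 and not called on library totals. The 65 include miR-486a and miR-486b, with identical 5p counts, and miR-199a and miR-199b, with identical 3p counts. The ratio of miR-199a, called towards 5p, thus rests on a 3p count shared by both names. For miR-99a the reads of 5p over 3p were 77.0, 78.4 and 92.8 in MI ventricles, against 261, 359 and 252 in sham ventricles. The 3p arm had gained in every MI library (difference -1.80 ± 0.17 log2, limma adjusted p = 1.61e-07). For let-7i the 5p reads over 3p reads were 210.4, 174 and 179.9 in MI ventricles, against 75.7, 72.0 and 68.9 in sham ventricles. Here the 5p arm had gained (difference 1.38 ± 0.15 log2, limma adjusted p = 8.32e-07).
For miR-27a, where 3p is the abundant arm, the reads of 3p over 5p were 138, 173 and 150.4 in MI ventricles, against 508, 351 and 375 in sham ventricles. The ratio was lower in each MI library (difference 1.41 ± 0.17 log2, limma adjusted p = 2.61e-06, as 5p over 3p). For miR-145a, likewise with more 3p, they were 2.2, 3.05 and 2.74 in MI ventricles, against 7.10, 6.36 and 4.14 in sham ventricles. The 3p excess was smaller with MI (difference 1.12 ± 0.19 log2, limma adjusted p = 0.000133, as 5p over 3p). miR-676 moved towards 3p (difference -1.11 ± 0.15 log2, limma adjusted p = 8.67e-06), and miR-191 towards 5p (difference 1.13 ± 0.18 log2, limma adjusted p = 6.61e-05). In these 6 hairpins, which had at least 100 reads of each arm in every library, the MI and sham ratios did not overlap.

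Many hairpins lie in introns or exons of longer genes and are cut from their transcripts. Such host genes were compared in 123 pairs of a miRNA and a gene that holds its hairpin on the same strand, with 73 genes, using log2(FPKM + 1) of the mRNA libraries of both groups, where FPKM is a length- and depth-scaled fragment count. Of the pairs 118 came from gene coordinates and 5, among them Egfl7, Myh7b and Mrc1, from a list of known hosts. Of 11689 mRNAs tested with limma, 58.0% were higher and 8.61% lower in MI ventricles, 66.6% in all (median difference 0.53), and after quantile normalization 24% and 32.8%, 56.8% in all. Of the 73 host genes 48 were higher and 10 lower, with 26 and 20 on median-ratio factors and 24 and 19 after quantile normalization. Among pairs with a higher miRNA, the host was higher in 27, lower in 0 and not called in 2, and after quantile normalization higher in 23, lower in 1 and not called in 5. Among pairs with a lower miRNA it was higher in 36, lower in 14 and not called in 19, and after quantile normalization higher in 14, lower in 23 and not called in 32. Some of the higher hosts reached the minimum of 1 FPKM only in MI libraries, so that their direction in FPKM was fixed by the filter. Among these were Dnm3os, Slit2, F630028O10Rik (host of miR-223) and the noncoding host of let-7b and let-7c-2. They remain in these counts and in the correlation. Across the 123 pairs the log2 changes of miRNA and host had a Pearson r of 0.72 and a Spearman rho of 0.72, a description over pairs that share libraries, hosts and hairpins. The hairpin overlapped an exon of the host in 31 pairs and lay in an intron in 87.
Pairs that fell together included miR-208a-3p with Myh6, the main adult cardiac myosin, which had 1946, 1280.2 and 884 FPKM in MI ventricles, against 3234, 3207 and 3695 FPKM in sham ventricles. All MI libraries were lower (difference -1.37 ± 0.31 in log2(FPKM + 1), limma adjusted p = 0.00792). Myh7, the fetal cardiac myosin and host of miR-208b-3p, rose by 2.54 (limma adjusted p = 0.00123). Ank1, of the membrane skeleton and host of miR-486a, had 16.2, 11.5 and 8.69 FPKM in MI ventricles, against 21.2, 21.5 and 22 FPKM in sham ventricles. It was lower (difference -0.82 ± 0.20 in log2(FPKM + 1), limma adjusted p = 0.011). Gpc1, host of miR-149-5p, was lower too (difference -0.65 ± 0.15 in log2(FPKM + 1), limma adjusted p = 0.00928). Myh7b, host of miR-499-5p, had 7.68, 3.40 and 1.74 FPKM in MI ventricles, against 9.11, 6.95 and 7.52 FPKM in sham ventricles. MI 1 lay within the range of the sham libraries, and the difference did not pass (difference -0.90 ± 0.39 in log2(FPKM + 1), limma adjusted p = 0.0733), while after quantile normalization it was -1.50 and did.
Pairs that rose together included miR-214-3p with Dnm3os, which had 2.27, 2.40 and 4.58 FPKM in MI ventricles, against 0.376, 0.247 and 0.316 FPKM in sham ventricles. Dnm3os reached the minimum of 1 FPKM only in MI libraries, and groups were far apart at a low level (difference 1.59 ± 0.22 in log2(FPKM + 1), limma adjusted p = 0.00146). Wwp2, a ubiquitin ligase and host of miR-140, had 11.4, 10.1 and 16.1 FPKM in MI ventricles, against 3.56, 3.71 and 3.41 FPKM in sham ventricles. It was higher in each MI library (difference 1.54 ± 0.18 in log2(FPKM + 1), limma adjusted p = 0.000942), as was Col27a1, host of miR-455 (difference 1.86 ± 0.18 in log2(FPKM + 1), limma adjusted p = 0.000628). Vmp1, whose exon holds miR-21a, was higher (difference 0.78 ± 0.12 in log2(FPKM + 1), limma adjusted p = 0.00201), and with median-ratio factors it did not pass, at 0.16.
miR-22-3p and its host changed in opposite directions. Mir22hg, the noncoding RNA whose exon holds the hairpin (chr11:75463716-75463810, plus strand), had 16.1, 12.8 and 18.9 FPKM in MI ventricles, against 4.56, 5.32 and 4.67 FPKM in sham ventricles. Every MI library was above the sham libraries (difference 1.52 ± 0.16 in log2(FPKM + 1), limma adjusted p = 0.000736, and 0.94 after quantile normalization), while miR-22-3p changed by -1.21. Ctdspl and Ctdsp2, phosphatase genes that hold the 2 hairpins of miR-26a, had differences of 1.88 and 1.30, both called, with miR-26a-5p at 0.08 and not called. With median-ratio factors (0.27), library totals (0.83) and all 18 libraries (0.18), miR-26a-5p was called higher. Mir143hg, the host RNA of miR-143, was higher (difference 1.58 ± 0.21 in log2(FPKM + 1), limma adjusted p = 0.00137). There miR-143-3p was not called, at -0.08, but on library totals it was called higher, at 0.68. miR-335-3p, in an intron of the imprinted gene Mest, changed by -1.96, where Mest had a difference of 0.59, close to the median of all mRNAs, and -0.09 after quantile normalization.

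**Figure D4:**
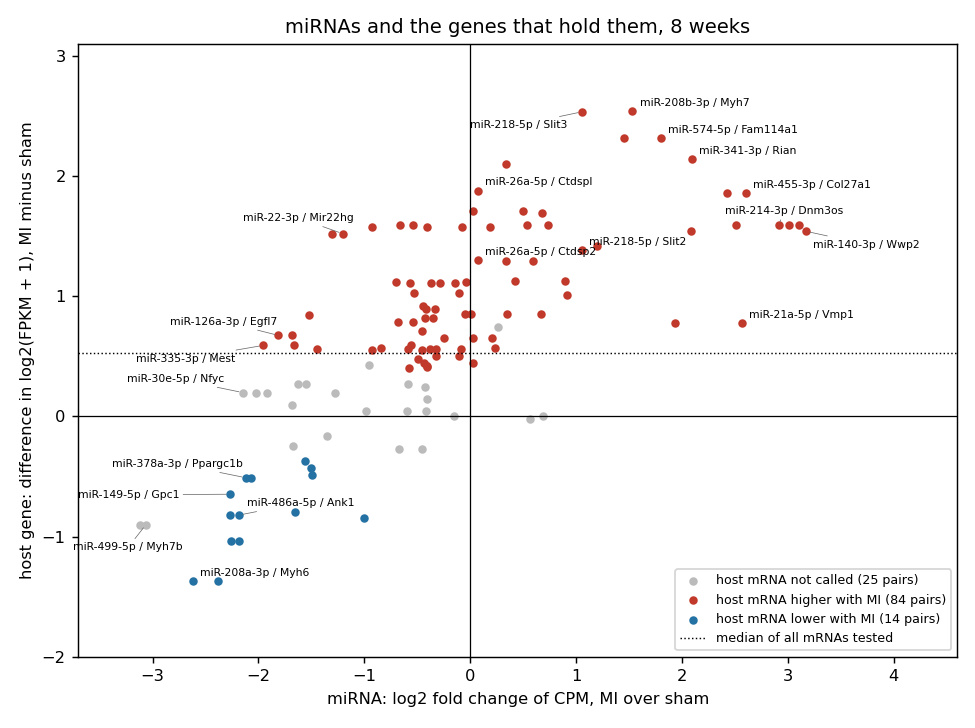
Change of the host gene in log2(FPKM + 1) (vertical axis) against the log2 fold change of the miRNA (horizontal axis) for 123 pairs; points are pairs (red host higher in MI, blue lower, grey not called) and the dotted line is the median of all 11689 mRNAs, 0.53. On this scale no pair has a called lower host with a higher miRNA (1 pair after quantile normalization), and miR-22-3p with Mir22hg lies at the upper left.

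The change at 8 weeks was set against that at 1 week, where separate MI and sham libraries were available, 3 of each, by a test of the difference of the 2 changes in all 18 small RNA libraries. Of the 282 miRNAs, 95 had a change at 8 weeks above that at 1 week (33.7%) and 89 below it (31.6%), 65.2% in all. The 282 had been chosen by the 8 week libraries. Of them, 32 reached the minimum only in MI and 4 only in sham libraries of 8 weeks, so that their direction there was fixed by the filter. On library totals 53 were above and 120 below. With the calls of the same fit, 91 were higher at both times, 95 lower at both, 10 higher at 8 weeks and lower at 1 week, and 17 lower at 8 weeks and higher at 1 week.
miR-208b-3p was among the 10. It averaged, in normalized CPM, 1451 ± 343 in MI and 469 ± 110.2 in sham ventricles at 8 weeks, and 164 ± 47.1 in MI and 286 ± 39.1 in sham ventricles at 1 week. The MI level exceeded sham at 8 weeks and was under it at 1 week (difference 2.43 ± 0.30 log2, edgeR adjusted p = 1.15e-05).
miR-335-3p went the other way. It averaged, in normalized CPM, 30.9 ± 2.33 in MI and 111 ± 10.6 in sham ventricles at 8 weeks, and 186 ± 35.3 in MI and 114 ± 7.58 in sham ventricles at 1 week. It was lower with MI at 8 weeks and higher at 1 week (difference -2.55 ± 0.18 log2, edgeR adjusted p = 5.59e-08).
miR-21a-3p averaged, in normalized CPM, 171 ± 62.3 in MI and 41.6 ± 6.08 in sham ventricles at 8 weeks, and 1119.7 ± 84.2 in MI and 46.8 ± 2.90 in sham ventricles at 1 week. It was higher with MI at both times, and less so at 8 weeks (difference -2.54 ± 0.27 log2, edgeR adjusted p = 3.73e-06). miR-381-3p of the Dlk1-Dio3 region averaged 70.5 ± 25.3 in MI and 30.5 ± 2.08 in sham ventricles at 8 weeks, and 468 ± 97.9 in MI and 47.4 ± 3.02 in sham ventricles at 1 week, and its rise too was smaller at 8 weeks (difference -2.09 ± 0.28 log2, edgeR adjusted p = 1.9e-05). miR-455-3p averaged, in normalized CPM, 144 ± 22.6 in MI and 22 ± 2.78 in sham ventricles at 8 weeks, and 38.8 ± 5.55 in MI and 26.5 ± 3.89 in sham ventricles at 1 week. Its rise was larger at 8 weeks (difference 2.16 ± 0.23 log2, edgeR adjusted p = 4.55e-06). miR-582-3p, from an intron of Pde4d, averaged, in normalized CPM, 59.1 ± 25.8 in MI and 74.4 ± 46.2 in sham ventricles at 8 weeks, and 21.5 ± 6.24 in MI and 137 ± 27.1 in sham ventricles at 1 week. At 8 weeks sham 1 was the lowest of all 6 libraries and the groups overlapped, and the fall with MI was seen at 1 week (difference 2.34 ± 0.64 log2, edgeR adjusted p = 0.00513).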

How the data were processed

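Per the labels, total RNA (1 µg) of pooled left ventricles was used for small RNA and mRNA libraries. The authors deposited whole-number read counts per mature miRNA and the same values as RPM. The mapper and miRBase release of the small RNA data are not given in the sources used here. The deposited FPKM of mRNAs were made by the authors on build mm10, with Cufflinks 2.2.1, Bowtie2 2.2.3 and TopHat2 2.0.13 in the submitters' processing notes. The 36 columns of the authors' normalized values and their fold changes and p-values were not used.

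MiRNAs with at least 10 RPM in at least 3 of the 6 libraries were tested on the deposited counts with edgeR 4.0.16 (R 4.3.3, quasi-likelihood F test, trimmed-mean factors, Benjamini-Hochberg over 282 miRNAs, threshold 0.05). Standard errors are approximate, being the log2 fold change over the square root of F. The stage difference used all 18 small RNA libraries in 1 fit. Arm ratios and log2(FPKM + 1), for genes with at least 1 FPKM in 3 libraries, were tested with limma 3.58.1. The share of reads had an exact permutation test (scipy 1.17.1). The edgeR test of MI against sham was checked on simulated counts, and the limma tests on simulated normal values. The stage difference and the permutation test were not checked in this way. Alternatives were other scaling factors, filters, pseudocounts, DESeq2 1.42.0, limma on log2(RPM + 1), all 18 libraries, a replicate block and each library left out. Keeping miRNAs with identical counts once was an alternative chosen after seeing the data.

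Named miRNAs were the 10 largest rises and 10 largest falls past the threshold, without overlap of groups and averaging 50 RPM or more, the 8 most abundant, and members of the lists described. Named hairpins were the 6 largest arm changes with at least 100 reads of each arm in every library, named stage differences the 6 largest among miRNAs averaging 50 RPM or more, and named hosts those of named miRNAs. Of the erythroid and leukocyte lists, and of the sequences, those shown were chosen with their values seen. Members and lists were chosen with earlier results of these data known. Sequences and hairpin positions are from RefSeq, build GRCm38.p6. Depth was 28778530 to 39735944 miRNA reads per library, so that counting error was small beside the spread between libraries.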

Additional observations from a re-analysis of the deposited data

Results flagged for a closer look

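Each of 6 stage differences was found by a test of the difference itself, the change with MI at 8 weeks minus that at 1 week. The changes at 8 weeks and at 1 week were -1.85 and 0.71 for miR-335-3p (difference -2.55), 2.04 and 4.58 for miR-21a-3p (difference -2.54), and 1.63 and -0.80 for miR-208b-3p (difference 2.43). They were -0.33 and -2.67 for miR-582-3p (difference 2.34), 2.71 and 0.55 for miR-455-3p (difference 2.16), and 1.21 and 3.30 for miR-381-3p (difference -2.09), all on the log2 scale. Each stage had its own MI and sham libraries.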

How the results depend on the processing

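Median-ratio factors gave 115 higher and 104 lower miRNAs, DESeq2 120 and 112, all 18 libraries 107 and 125, and identical counts kept once 103 and 125. With library totals alone 165 miRNAs were higher and 62 lower, and with limma on log2(RPM + 1) 164 and 63. Without a filter on low counts 207 were higher and 380 passed in all, and with a mean of at least 50 RPM 64 were higher, 78 lower and 142 in all, from fewer miRNAs tested. The count of arm changes towards 3p was 4 to 7 when each library was left out in turn (4 without MI 1, 5 without MI 2, MI 3 or sham 2, against 8), and that of all arm changes 16 to 20. Leaving out a library gave 217 to 231 called miRNAs, 163 to 189 stage differences, 42 to 62 called hosts and a difference of the read share of -6.59 to -4.45 percentage points. Stage differences above numbered 53 on library totals and 39 with at least 50 RPM, where 100 passed in all. Hosts were higher in 26 and lower in 20 with median-ratio factors, and in 24 and 19 after quantile normalization.

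Of the 282 miRNAs, 77 that were below 0 came out above it on library totals. The 21 of them in the lists were, with limma on log2(RPM + 1) in brackets, miR-143-3p 0.68 (0.67), miR-143-5p 0.35 (0.33), miR-29a-3p 0.35 (0.35), miR-29a-5p 0.062 (0.058), miR-29b-3p 0.17 (0.16), miR-144-5p 0.27 (0.26), miR-451a 0.089 (0.10), miR-203-3p 0.14 (0.10), let-7a-5p 0.60 (0.60), let-7d-5p 0.40 (0.40), let-7f-5p 0.15 (0.15), let-7g-5p 0.25 (0.25), miR-98-5p 0.33 (0.33), miR-106b-5p 0.19 (0.18), miR-25-3p 0.47 (0.47), miR-92a-3p 0.31 (0.30), miR-93-5p 0.38 (0.38), miR-15a-5p 0.32 (0.31), miR-24-3p 0.71 (0.69), miR-27a-3p 0.64 (0.63) and miR-26b-5p 0.30 (0.29). miR-141-3p was -0.76 without MI 2 and reached 1.496 without MI 1, and the cause was not tested.

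MI and sham libraries of the same replicate number were not treated as pairs. Correlations of their deviations were 0.0375, 0.124 and 0.0738, and -0.138 to 0.0684 for unlike numbers. With 3 libraries in each group these values cannot decide whether the samples were paired. With the number as a block, 100 miRNAs were higher and 124 lower, 11 arm changes went towards 5p and 6 towards 3p, 93 stage differences were above and 86 below, and 44 hosts were higher and 10 lower. The number of libraries, not depth, limits the precision.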

Other observations

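The epithelial miR-200 family was highest in MI 2, and miR-200b-3p and miR-429-3p were above the sham libraries in every MI library. miR-200b-3p, which was not tested since only 2 libraries reached 10 RPM, had 7.26, 41.6 and 16.9 RPM in MI ventricles, against 0.819, 0.833 and 0.635 in sham ventricles. miR-429-3p, from the same cluster, had 2.99, 24.6 and 5.72 RPM in MI ventricles, against 0.364, 0.0537 and 0.185 in sham ventricles. miR-141-3p, of a second cluster, had 8.95, 77.7 and 10.1 normalized CPM in MI ventricles, against 15.2, 15.0 and 18 in sham ventricles, with MI 2 above and MI 1 and MI 3 below all sham libraries. The mean log2(FPKM + 1) of adipocyte markers was 1.85, 6.05 and 7.49 in the 3 MI libraries and that of mesothelial markers 1.62, 2.32 and 4.81. Which cells gave the miR-200 family reads was not tested.

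miR-1a-3p and miR-133a-3p are made from the same transcripts but differed in the size of their fall. The reads of miR-1a-3p over those of miR-133a-3p were 0.0182, 0.0227 and 0.0211 in MI ventricles, against 0.0469, 0.0488 and 0.0551 in sham ventricles, a ratio that needs no scaling between libraries. The groups did not overlap, and the ratio was close among the 3 MI libraries.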
